A study of Mus musculus with 36 samples.

Results

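The 9 genes described here, Obp2a, Nlrp12, Vnn1, Nnmt, Abhd1, Pik3ap1, Rassf4, Cyp46a1 and Mme, were chosen by measured values: their RNA level in the liver of undisturbed mice differed very widely between 3 inbred strains. They are 9 of the 18193 genes measured, and 14 of the 45037 probe sets of the array carry one of their symbols. All 14 were followed in liver and in brain, with and without sleep deprivation. Because the differences among control livers chose the genes, those differences are given as a description with no test. Tests were kept to the sleep-deprived livers, to brain and to the mean response of the strains to sleep loss.

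The study asked how sleep loss changes RNA in brain and liver of mice of different genetic background. Male C57BL/6J, AKR/J and DBA/2J mice from the Jackson Laboratory, between 12 and 13 weeks old, were kept awake for 6 h from lights on (Zeitgeber time, ZT, 0), or left in the home cage, and were killed at ZT 6. RNA of whole brain or liver was pooled in equal parts from 3 mice, and each pool went on 1 Affymetrix array. Each of the 12 groups (3 strains, 2 conditions, 2 tissues) had 3 arrays, which makes 36 arrays. The sample labels list no transgene, engineered deletion or drug for any group. The spread between arrays is that between pools, not between single mice. For AKR/J control arrays 2 and 3 of each tissue the labels conflict, since the source name gives ZT 0 where the title gives ZT 6.

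Inbred strains are fixed for different alleles, so a gene near which they differ can have a stable high or low RNA level in each strain. The liver is mostly hepatocytes, which make secreted carriers and the enzymes of vitamin, sterol and methyl group metabolism, and it also holds Kupffer cells, endothelium and other immune cells. The 9 genes cover several of these roles: a secreted lipocalin (Obp2a), 4 enzymes of small molecule metabolism or of the alpha/beta hydrolase fold (Vnn1, Nnmt, Cyp46a1, Abhd1), a surface peptidase (Mme) and 3 proteins of signalling (Nlrp12, Pik3ap1, Rassf4).

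Values are log2 expression values as deposited, on which 1 unit is a doubling. A level is read only against other arrays of the same probe set and tissue, apart from the tissue markers that follow, which check the labels. In bulk RNA, fewer cells of a type and less RNA per cell cannot be told apart. Albumin (Alb), the hepatocyte product, lay between 14.58 and 14.71 on the 18 liver arrays and between 3.37 and 4.46 on the 18 brain arrays, while Mbp of myelin lay between 11.10 and 11.99 in brain and between 4.49 and 5.11 in liver. Liver arrays were alike in spread, with an SD over probe sets of 2.09 to 2.16, although control DBA/2J liver array 1 had a higher 3' to 5' difference of its actin probe sets, at 2.16. In brain, 3 sleep-deprived arrays had a narrower spread than the rest: C57BL/6J array 1 (1.90), AKR/J array 3 (1.96) and DBA/2J array 2 (1.93). The actin difference in brain was highest on control C57BL/6J array 2 (1.13) and control DBA/2J array 3 (0.98). Neither is among the arrays said below to have stood apart.

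Promoter sequence of RefSeq for the mouse assembly GRCm38.p6 was found for 6 of the 9 genes, with 8 start sites. The 250 bases before the start are printed for Obp2a and Rassf4, which were both highest in DBA/2J liver, and for Cyp46a1, which was high in AKR/J liver. They are reference sequence, not that of AKR/J or DBA/2J, and run 5' to 3' on the gene's strand. Capitals mark matches to 4 motifs searched on both strands: the TATA box TATAAA, the CCAAT box CCAAT, the HNF1 motif GTTAAT and the E-box CACGTG.
Obp2a, chr2:25699824-25700073, plus strand: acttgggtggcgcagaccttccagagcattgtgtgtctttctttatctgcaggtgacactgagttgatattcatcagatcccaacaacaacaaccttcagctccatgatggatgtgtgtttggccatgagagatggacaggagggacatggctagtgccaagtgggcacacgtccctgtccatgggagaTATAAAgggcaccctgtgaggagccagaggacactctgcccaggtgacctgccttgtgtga
Rassf4, chr6:116673837-116674086, minus strand: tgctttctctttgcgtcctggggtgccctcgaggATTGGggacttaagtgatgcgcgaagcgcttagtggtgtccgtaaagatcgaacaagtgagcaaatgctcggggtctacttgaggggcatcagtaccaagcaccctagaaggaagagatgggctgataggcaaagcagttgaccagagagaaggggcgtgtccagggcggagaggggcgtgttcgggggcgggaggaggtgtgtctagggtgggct
Cyp46a1, chr12:108334066-108334315, plus strand: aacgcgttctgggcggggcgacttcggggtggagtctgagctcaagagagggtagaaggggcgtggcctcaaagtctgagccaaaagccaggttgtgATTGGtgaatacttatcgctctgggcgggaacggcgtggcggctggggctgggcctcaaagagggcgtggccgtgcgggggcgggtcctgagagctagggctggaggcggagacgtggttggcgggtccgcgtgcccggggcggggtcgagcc
The Obp2a window held TATAAA, whose first base lay 61 bases before the start, and the table's gene span covered the whole window. Rassf4 and Cyp46a1 each held CCAAT on the other strand (ATTGG as printed), at 216 and 153 bases before the start. Among the other members, Pik3ap1 had CACGTG at 172 bases, Nlrp12 had none of the motifs, and 2 of the 3 starts of Mme had CCAAT. Of 32851 RefSeq promoter windows of this length, 12.4% held TATAAA, 33.9% CCAAT, 6.43% GTTAAT and 6.02% CACGTG. Obp2a and Mme's first start had 2 CG pairs each, Mme's other 2 starts 27 each, Rassf4 had 13 and Cyp46a1 had 23. The median over all windows was 6. A match describes the letters only and shows no binding.

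Among control livers, the largest strain difference of each gene ran from 7.34 for Obp2a (DBA/2J minus C57BL/6J) down to 3.11 for Cyp46a1 (AKR/J minus C57BL/6J). By that size Obp2a ranked 2 of all genes, Nlrp12 6, Vnn1 12, Nnmt 13, Abhd1 16, Pik3ap1 23, Rassf4 25, Mme 28 and Cyp46a1 39. The members are therefore not all of the most divergent genes. At the lower edge, Adgrv1 at 3.12 and Fmo2 at 3.10, neither of them a member, lay just above and just below Cyp46a1.

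In the sleep-deprived livers, which were separate pools of mice, most members again differed between strains. By limma's test at an adjusted p under 0.05, AKR/J against C57BL/6J gave 10 of 14 probe sets (7 higher, 3 lower, of 8 genes), where 6.45% of all probe sets were called (3.44% higher, 3.00% lower). DBA/2J against C57BL/6J gave 9 (5 higher, 4 lower, of 6 genes) against 6.12% of all (3.56% higher, 2.56% lower), and DBA/2J against AKR/J gave 11 (6 higher, 5 lower, of 7 genes) against 5.16% (2.91% higher, 2.25% lower). The arrays of the compared strains did not overlap for 11, 10 and 12 of the 14 probe sets, against 23.0%, 25.1% and 23.2% of all. The median size of the difference was 1.26, 1.71 and 3.12 for the members and 0.11 over all probe sets in each comparison. The same strains and tissue chose the members, so these calls and sizes follow in part from the choice. The spread in each test was estimated over all 18 liver arrays, controls included. These 3 comparisons share arrays in pairs. DBA/2J stood apart for Obp2a, Rassf4, Nlrp12 and Mme, AKR/J for Vnn1, Abhd1 and Cyp46a1, and C57BL/6J for Nnmt and Pik3ap1. Whether the strains differ in sequence under any of the 14 probe sets was not tested.

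**Figure D1:**
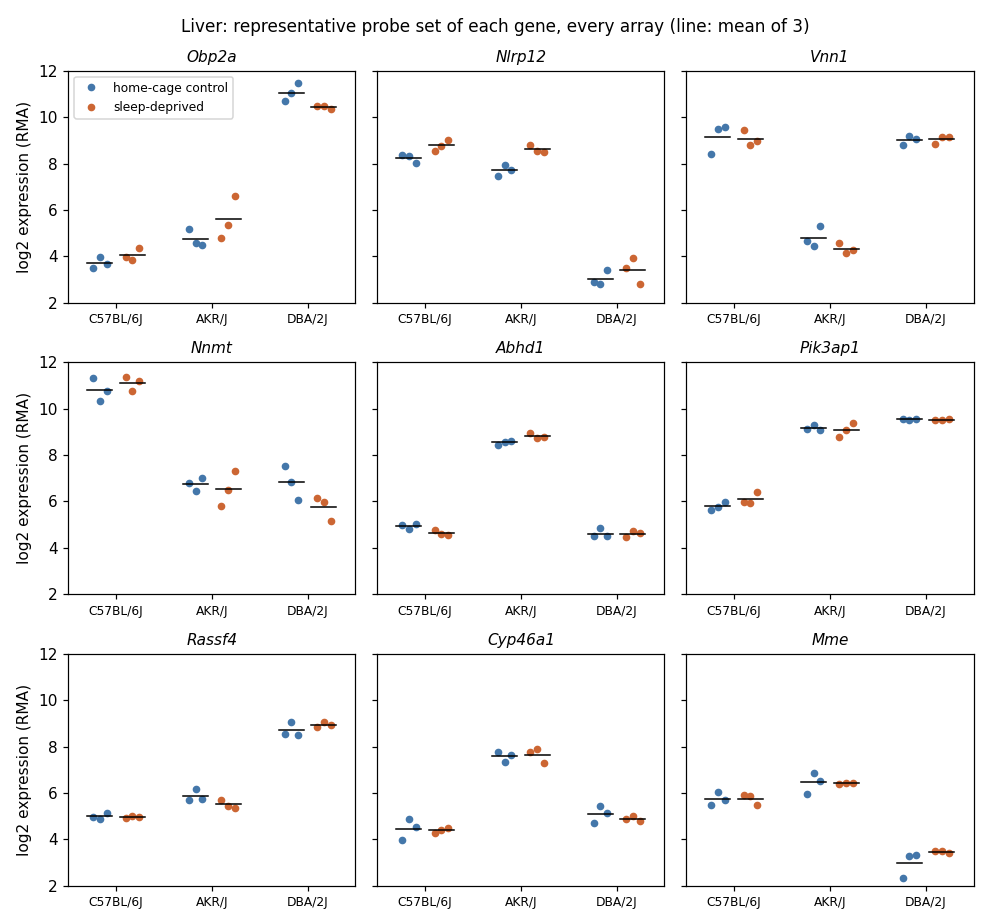
Log2 expression on each of the 18 liver arrays for the 9 genes, 1 panel per gene (the probe set of highest mean liver level), with strain on the x axis, control and sleep-deprived arrays marked apart and bars at the group means. Obp2a lies at or above 10.37 on all DBA/2J arrays and at or below 6.62 on all others, and in each panel the same strain stands apart in both conditions.

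Obp2a, a secreted lipocalin of the odorant-binding group (1428022_at), was high in DBA/2J liver alone. Control arrays read 10.68, 11.03 and 11.46 in DBA/2J, against 5.17, 4.56 and 4.51 in AKR/J and 3.50, 3.99 and 3.66 in C57BL/6J. Sleep-deprived arrays read 10.50, 10.49 and 10.37 in DBA/2J, against 4.80, 5.36 and 6.62 in AKR/J and 3.96, 3.86 and 4.38 in C57BL/6J. No 2 strains overlapped within a condition, with C57BL/6J lowest and AKR/J between. Among sleep-deprived livers DBA/2J was higher than C57BL/6J by 6.39 ± 0.31 (SE; 83.9-fold, limma adjusted p = 5.557e-11) and than AKR/J by 4.86 ± 0.31 (29.0-fold, adjusted p = 3.352e-09). The step from C57BL/6J to AKR/J was smaller, at 1.53 ± 0.31 (2.89-fold, adjusted p = 0.0044), and rested on AKR/J arrays that ranged over almost 2 units. The C57BL/6J mean lay below the median liver array level of 4.10, where RMA compresses differences and a fold is approximate. Among 11 measured lipocalins and odorant carriers of a fixed list of 12, 1 was higher and 1 lower in each comparison with C57BL/6J, and 1 higher and 0 lower in DBA/2J against AKR/J. Of all probe sets, 6.45% (AKR/J against C57BL/6J), 6.12% (DBA/2J against C57BL/6J) and 5.16% (DBA/2J against AKR/J) were called. The list's median differences were -0.08 (AKR/J minus C57BL/6J), -0.23 (DBA/2J minus C57BL/6J) and -0.08 (DBA/2J minus AKR/J), where the medians over all genes were 0.02, -0.0002 and -0.02. The higher gene was Obp2a itself, and the lower was Ptgds, a prostaglandin synthase of the lipocalin fold, at -0.35 ± 0.09 in AKR/J and -0.51 ± 0.09 in DBA/2J.

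Rassf4, of the Ras association domain family that binds Ras-like GTPases, was also highest in DBA/2J liver, by all 3 of its probe sets. Its representative 1439622_at read 8.54, 9.04 and 8.50 in control DBA/2J, 5.71, 6.19 and 5.72 in AKR/J and 4.98, 4.89 and 5.16 in C57BL/6J. After sleep deprivation it read 8.83, 9.04 and 8.92, then 5.71, 5.45 and 5.36, then 4.91, 4.99 and 4.97 in the same order of strains. The 3 strains kept the order seen for Obp2a, with no overlap in either condition. Among sleep-deprived livers DBA/2J exceeded C57BL/6J by 3.97 ± 0.14 (15.7-fold, limma adjusted p = 7.753e-13) and AKR/J by 3.42 ± 0.14 (10.7-fold, adjusted p = 6.970e-12). AKR/J exceeded C57BL/6J by 0.55 ± 0.14 (adjusted p = 0.0260), a call that was lost under 6 of 27 alternatives, with adjusted p up to 0.1279. The second probe set, 1444009_at, gave 4.27 ± 0.27 (19.3-fold), 3.29 ± 0.27 (9.78-fold) and 0.98 ± 0.27 for the same comparisons, and the last of these was lost under 8 of 27 alternatives. The dimmer 1431038_at had the same order between DBA/2J and the others with far smaller differences, 0.87 ± 0.16 against C57BL/6J (adjusted p = 0.0015) and 0.75 ± 0.16 against AKR/J (adjusted p = 0.0062). Its AKR/J arrays (4.91, 4.36 and 4.54) overlapped those of C57BL/6J (4.48, 4.38 and 4.62).
Of 12 measured genes of the RASSF family and Hippo kinases, from a list of 13, 3 were higher and 1 lower in DBA/2J against each other strain, and 1 was higher in AKR/J against C57BL/6J. The list's medians were 0.13 (AKR/J minus C57BL/6J), 0.15 (DBA/2J minus C57BL/6J) and 0.15 (DBA/2J minus AKR/J). For these pairs, in that order, 6.45%, 6.12% and 5.16% of all probe sets were called. Besides Rassf4, Rassf5 was higher in DBA/2J than in C57BL/6J by 0.95 ± 0.15 and Rassf6 by 0.83 ± 0.13, while Rassf3 was lower by -0.54 ± 0.13 and was lower than in AKR/J by -0.89 ± 0.13.

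Nlrp12, a cytosolic receptor of the NOD-like family known for restraining inflammatory signalling in myeloid cells (1440921_at), was low in DBA/2J liver. Control arrays read 2.90, 2.80 and 3.43 in DBA/2J, against 7.46, 7.95 and 7.71 in AKR/J and 8.36, 8.31 and 8.03 in C57BL/6J. Sleep-deprived arrays read 3.51, 3.93 and 2.80, then 8.78, 8.55 and 8.51, then 8.56, 8.77 and 9.03. DBA/2J stood apart in both conditions, while sleep-deprived AKR/J and C57BL/6J overlapped. Among sleep-deprived livers DBA/2J was lower than C57BL/6J by -5.37 ± 0.22 (41.5-fold, limma adjusted p = 4.007e-12) and than AKR/J by -5.20 ± 0.22 (36.7-fold, adjusted p = 6.970e-12). Both folds are approximate, since the DBA/2J arrays lay below the median liver array level of 4.10. AKR/J minus C57BL/6J was -0.18 ± 0.22 (adjusted p = 0.7697).
Some markers of myeloid cells also differed between strains. The summed log2 level of 7 neutrophil markers was 29.1 to 37.6 in sleep-deprived C57BL/6J livers, 28.0 to 28.2 in AKR/J and 27.0 to 28.4 in DBA/2J, where the lowest array was a DBA/2J array and AKR/J and DBA/2J overlapped, with Ltf, the lowest, at means of 3.30 to 3.66. The sum over 8 Kupffer cell and macrophage markers was 60.5 to 62.4, 53.2 to 57.2 and 56.8 to 65.2. By this sum AKR/J lay below C57BL/6J but overlapped DBA/2J. Of the 8, 3 were lower in AKR/J than in C57BL/6J and 0 higher, where 3.00% of all probe sets were lower and 3.44% higher. In DBA/2J against C57BL/6J, 0 of the 8 were higher and 0 lower (3.56% and 2.56% of all), with a median difference of 0.01. Of the 7 neutrophil markers, 1 was lower and 0 higher in AKR/J, and also in DBA/2J, against C57BL/6J, beside the same shares. The part of these cells in the difference of Nlrp12 was not tested. Of 12 measured NOD-like receptor and inflammasome genes, from a list of 14, 1 was higher and 2 lower in AKR/J against C57BL/6J, 0 higher and 2 lower in DBA/2J against C57BL/6J, and 1 of each in DBA/2J against AKR/J. The lower genes in both comparisons of DBA/2J include Nlrp12 itself. The medians were -0.21 (AKR/J minus C57BL/6J), 0.07 (DBA/2J minus C57BL/6J) and 0.06 (DBA/2J minus AKR/J). Beside the counts, 6.45%, 6.12% and 5.16% of all probe sets were called in these pairs. Nlrc5, which drives MHC class I genes, was lower in AKR/J than in C57BL/6J by -1.15 ± 0.17, and Il1b, the cytokine, was lower than in C57BL/6J in both other strains, by -0.40 ± 0.10 in AKR/J and -0.48 ± 0.10 in DBA/2J.

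Mme, the membrane peptidase neprilysin that cleaves small peptides, was likewise low in DBA/2J liver by both probe sets. On 1455961_at the controls read 2.35, 3.28 and 3.34 in DBA/2J, against 5.96, 6.87 and 6.53 in AKR/J and 5.50, 6.04 and 5.70 in C57BL/6J. The sleep-deprived arrays read 3.48, 3.49 and 3.42, then 6.41, 6.43 and 6.41, then 5.91, 5.87 and 5.49. The DBA/2J arrays lay below all others, and the sleep-deprived AKR/J arrays lay above those of C57BL/6J. DBA/2J was lower than C57BL/6J by -2.29 ± 0.23 (4.89-fold, limma adjusted p = 1.449e-06) and than AKR/J by -2.95 ± 0.23 (7.73-fold, adjusted p = 4.336e-08), with DBA/2J again below 4.10. AKR/J minus C57BL/6J was 0.66 ± 0.23 and did not pass (adjusted p = 0.0985), although on the second probe set, 1422975_at, it was 0.93 ± 0.17 and passed (adjusted p = 0.0014). On that probe set DBA/2J was lower by -1.12 ± 0.17 and -2.05 ± 0.17. Of 11 measured membrane peptidases, from a list of 13, 0 passed in AKR/J against C57BL/6J by the representative probe sets, while 1 was higher and 1 lower in each comparison of DBA/2J. The lower one in both was Mme itself. The medians were 0.10 (AKR/J minus C57BL/6J), -0.02 (DBA/2J minus C57BL/6J) and -0.12 (DBA/2J minus AKR/J). Over all probe sets the shares called in these pairs were 6.45%, 6.12% and 5.16%. Ece1, which processes endothelin, was the higher one against C57BL/6J (0.97 ± 0.21), and Enpep, the angiotensin-cleaving aminopeptidase A, against AKR/J (0.51 ± 0.12).

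Vnn1, the pantetheinase that releases pantothenate, the vitamin precursor of coenzyme A, was low in AKR/J liver by both probe sets. On 1418486_at the controls read 4.64, 4.44 and 5.30 in AKR/J, 8.42, 9.51 and 9.56 in C57BL/6J and 8.80, 9.17 and 9.04 in DBA/2J. The sleep-deprived arrays read 4.58, 4.17 and 4.26, then 9.44, 8.81 and 8.98, then 8.86, 9.15 and 9.13. AKR/J lay apart, and C57BL/6J overlapped DBA/2J in both conditions. AKR/J was lower than C57BL/6J by -4.74 ± 0.25 (26.7-fold, limma adjusted p = 2.015e-10) and DBA/2J was higher than AKR/J by 4.71 ± 0.25 (26.2-fold, adjusted p = 2.453e-10). On 1447845_s_at these differences were -4.13 ± 0.26 (17.6-fold) and 4.20 ± 0.26 (18.3-fold), again with the low strain below 4.10. DBA/2J minus C57BL/6J was -0.03 and 0.06 on the 2 probe sets (adjusted p = 0.9742 and 0.9451). The sum of Kupffer cell markers, given above, was also lower in AKR/J than in C57BL/6J, though it overlapped that of DBA/2J. The lowest of these markers, Timd4, had a mean of 4.12 in AKR/J, 4.78 in C57BL/6J and 4.85 in DBA/2J. The part of Kupffer cells in the difference of Vnn1 was not tested.
Of all 12 vanin and coenzyme A genes listed, 2 were higher and 3 lower in AKR/J against C57BL/6J, 1 was higher and 1 lower in DBA/2J against C57BL/6J, and 2 of each passed in DBA/2J against AKR/J. The counts in both comparisons with AKR/J include Vnn1 itself. The medians were -0.07 (AKR/J minus C57BL/6J), 0.08 (DBA/2J minus C57BL/6J) and 0.06 (DBA/2J minus AKR/J). Shares called of all probe sets in these pairs were 6.45%, 6.12% and 5.16%. Vnn3, a second vanin, was lower in AKR/J than in C57BL/6J by -1.80 ± 0.10 (adjusted p = 1.958e-10) and higher in DBA/2J than in AKR/J by 1.96 ± 0.10. Of the Nudix hydrolases that cleave coenzyme A, Nudt19 was lower (-0.50 ± 0.11) and Nudt7 higher (0.68 ± 0.13) in AKR/J than in C57BL/6J. In DBA/2J they differed from C57BL/6J in the same directions, by -1.05 ± 0.11 and 0.76 ± 0.13.

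Abhd1, of the alpha/beta hydrolase fold (1418148_at), was high in AKR/J liver. The controls read 8.45, 8.58 and 8.63 in AKR/J, 4.98, 4.79 and 5.04 in C57BL/6J and 4.51, 4.84 and 4.51 in DBA/2J. The sleep-deprived arrays read 8.94, 8.73 and 8.80, then 4.78, 4.59 and 4.57, then 4.48, 4.71 and 4.65. The AKR/J arrays lay over 3 units above every other array, and sleep-deprived C57BL/6J and DBA/2J overlapped. AKR/J exceeded C57BL/6J by 4.18 ± 0.11 (18.1-fold, limma adjusted p = 3.276e-15), and DBA/2J was lower than AKR/J by -4.21 ± 0.11 (18.5-fold, adjusted p = 2.808e-15). DBA/2J minus C57BL/6J was -0.03 (adjusted p = 0.9211). Of all 15 genes of the alpha/beta hydrolase domain family listed, 4 were higher and 0 lower in AKR/J against C57BL/6J, 2 higher and 1 lower in DBA/2J against C57BL/6J, and 0 higher and 3 lower in DBA/2J against AKR/J. The counts in both comparisons with AKR/J include Abhd1 itself. The medians were 0.13 (AKR/J minus C57BL/6J), 0.02 (DBA/2J minus C57BL/6J) and -0.12 (DBA/2J minus AKR/J). For these pairs, in that order, 6.45%, 6.12% and 5.16% of all probe sets were called. Abhd5, which activates a triglyceride lipase, was higher in AKR/J than in C57BL/6J by 0.60 ± 0.11.

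Cyp46a1, the cholesterol 24-hydroxylase by which neurons turn cholesterol into a form that leaves the brain (1417709_at), was high in AKR/J liver. The controls read 7.79, 7.32 and 7.63 in AKR/J, 3.99, 4.87 and 4.54 in C57BL/6J and 4.73, 5.43 and 5.13 in DBA/2J. The sleep-deprived arrays read 7.75, 7.89 and 7.31, then 4.27, 4.41 and 4.47, then 4.87, 4.99 and 4.79. AKR/J lay apart in both conditions. AKR/J exceeded C57BL/6J by 3.27 ± 0.20 (9.62-fold, limma adjusted p = 1.391e-09), and DBA/2J was lower than AKR/J by -2.77 ± 0.20 (6.81-fold, adjusted p = 1.650e-08). DBA/2J minus C57BL/6J was 0.50 ± 0.20 and did not pass (adjusted p = 0.1748), although their sleep-deprived arrays did not overlap. The summed log2 level of 9 neuron markers in sleep-deprived liver was 33.3 to 33.8 in AKR/J, 33.8 to 34.4 in C57BL/6J and 32.9 to 34.5 in DBA/2J. Their lowest marker, Snap25, was dim in brain too by this probe set (3.26 to 4.32), so it says little of neurons. The part of neurons in the difference of Cyp46a1 was not tested.
Of all 9 oxysterol and bile acid P450 enzymes listed, 4 were higher and 1 lower in AKR/J against C57BL/6J, 1 was higher and 2 lower in DBA/2J against C57BL/6J, and 0 were higher and 3 lower in DBA/2J against AKR/J. The counts in both comparisons with AKR/J include Cyp46a1 itself. The medians were 0.10 (AKR/J minus C57BL/6J), 0.09 (DBA/2J minus C57BL/6J) and -0.18 (DBA/2J minus AKR/J). Beside the counts, 6.45%, 6.12% and 5.16% of all probe sets were called in these pairs. Cyp39a1, the 7-alpha-hydroxylase of 24-hydroxycholesterol, the product of Cyp46a1, went the other way in AKR/J. It was lower than in C57BL/6J by -1.65 ± 0.21 in AKR/J (adjusted p = 3.914e-05) and by -3.41 ± 0.21 in DBA/2J (adjusted p = 1.721e-09). Cyp7b1, which hydroxylates other oxysterols, was higher in AKR/J than in C57BL/6J by 0.96 ± 0.19, and Cyp7a1, the rate-limiting enzyme of bile acid synthesis, by 0.84 ± 0.25 (adjusted p = 0.0471, lost under 18 of 27 alternatives).

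Nnmt, which methylates nicotinamide with S-adenosylmethionine (1432517_a_at), was high in C57BL/6J liver. The controls read 11.33, 10.33 and 10.75 in C57BL/6J, 6.81, 6.44 and 7.03 in AKR/J, with 7.54, 6.86 and 6.07 in DBA/2J. The sleep-deprived arrays read 11.34, 10.76 and 11.21, then 5.81, 6.49 and 7.33, then 6.14, 6.00 and 5.17. C57BL/6J lay well above all others, and AKR/J and DBA/2J overlapped. AKR/J was lower than C57BL/6J by -4.56 ± 0.37 (23.6-fold, limma adjusted p = 9.637e-08) and DBA/2J by -5.34 ± 0.37 (40.4-fold, adjusted p = 8.720e-09). DBA/2J minus AKR/J was -0.78 ± 0.37 (adjusted p = 0.2876), and the SE was the largest among the representative probe sets.
Of 20 measured genes of nicotinamide and methyl group metabolism, from a list of 21, 4 were higher and 2 lower in AKR/J against C57BL/6J, 3 higher and 4 lower in DBA/2J against C57BL/6J, and 0 higher and 4 lower in DBA/2J against AKR/J. The lower genes in both comparisons with C57BL/6J include Nnmt itself. The medians were -0.0028 (AKR/J minus C57BL/6J), -0.07 (DBA/2J minus C57BL/6J) and -0.05 (DBA/2J minus AKR/J). Over all probe sets the shares called in these pairs were 6.45%, 6.12% and 5.16%. Aox3, an aldehyde oxidase of liver of the kind that oxidises methylnicotinamide, was lower in DBA/2J by -2.07 ± 0.16 against C57BL/6J and by -2.87 ± 0.16 against AKR/J, and in AKR/J it was higher than in C57BL/6J by 0.80 ± 0.16. Nmrk1, a nicotinamide riboside kinase, was lower in DBA/2J than in C57BL/6J by -1.59 ± 0.23. Qprt, which makes a NAD precursor from the tryptophan pathway, was higher in AKR/J than in C57BL/6J by 0.76 ± 0.09.

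Pik3ap1, the adaptor BCAP that couples B cell and Toll-like receptors to PI3 kinase, was low in C57BL/6J liver by one of its probe sets alone. On 1429831_at the controls read 5.65, 5.76 and 5.96 in C57BL/6J, 9.12, 9.30 and 9.10 in AKR/J, with 9.54, 9.51 and 9.55 in DBA/2J. The sleep-deprived arrays read 5.98, 5.92 and 6.42, then 8.77, 9.09 and 9.40, then 9.53, 9.52 and 9.54. C57BL/6J lay apart, and DBA/2J lay just above AKR/J without overlap. AKR/J exceeded C57BL/6J by 2.98 ± 0.14 (7.90-fold, limma adjusted p = 2.541e-11) and DBA/2J by 3.42 ± 0.14 (10.7-fold, adjusted p = 3.982e-12). DBA/2J minus AKR/J was 0.44 ± 0.14 (adjusted p = 0.0785).
The other probe set of Pik3ap1, 1421285_at, read 6.83, 6.68 and 7.00 in sleep-deprived C57BL/6J, 6.54, 6.53 and 7.01 in AKR/J, with 6.93, 6.99 and 7.35 in DBA/2J. All strains overlapped there, and the differences were -0.14 (AKR/J minus C57BL/6J, adjusted p = 0.8288), 0.25 (DBA/2J minus C57BL/6J, adjusted p = 0.6263) and 0.40 (DBA/2J minus AKR/J, adjusted p = 0.3834). The strain difference of this gene therefore holds for 1 of its 2 probe sets. The summed log2 level of 6 B cell markers in sleep-deprived livers was 27.8 to 28.1 in C57BL/6J, 27.2 to 28.0 for AKR/J and 27.2 to 27.8 for DBA/2J, with the defining marker Ms4a1 at means of 3.22 to 3.39. The part of B cells in the result was not tested. Of 12 measured genes of PI3 kinase adaptors and B cell or Toll-like receptor signalling, from a list of 14, 1 was higher in AKR/J and 2 in DBA/2J against C57BL/6J, and 0 were lower. None passed in DBA/2J against AKR/J, and all these counts are by the representative probe sets. The medians were -0.03 (AKR/J minus C57BL/6J), -0.0062 (DBA/2J minus C57BL/6J) and 0.11 (DBA/2J minus AKR/J). Shares called of all probe sets in these pairs were 6.45%, 6.12% and 5.16%. Besides Pik3ap1 itself the call in DBA/2J was Blnk, a B cell adaptor, at 0.40 ± 0.12 (adjusted p = 0.0485, lost under 17 of 27 alternatives).

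**Figure D2:**
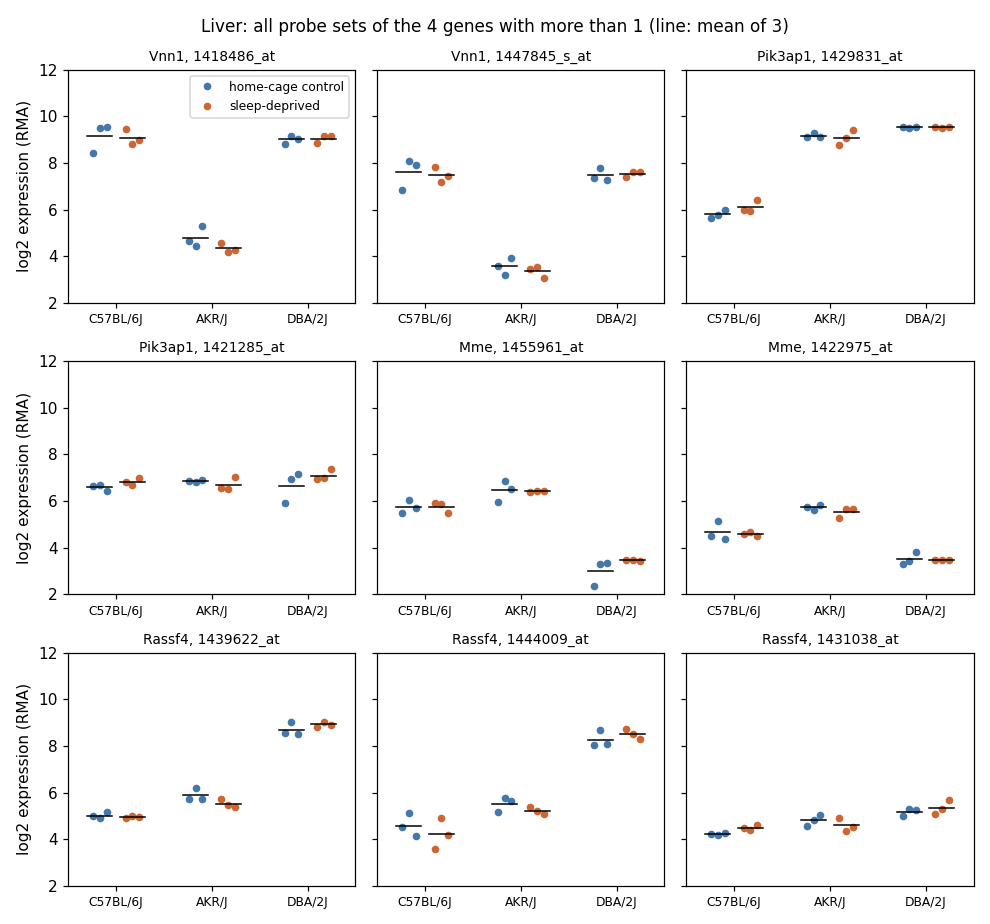
Log2 expression on the 18 liver arrays for the 9 probe sets of the 4 genes with more than 1 (Vnn1, Pik3ap1, Mme and Rassf4), by strain and condition, with bars at group means. The probe sets of Vnn1 and of Mme place the strains alike, while Pik3ap1 1421285_at lies between 5.90 and 7.35 in all strains and Rassf4 1431038_at shows differences under 1 unit.

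In brain, a difference between strains passed for 1 of the 9 genes. Abhd1 was high in AKR/J brain as in AKR/J liver. Control brains read 6.92, 6.75 and 6.60 in AKR/J, 5.10, 5.47 and 4.90 in C57BL/6J and 4.92, 4.99 and 5.05 in DBA/2J. Sleep-deprived brains read 7.03, 7.13 and 6.94, then 5.59, 5.26 and 4.95, then 4.82, 5.68 and 4.89. AKR/J lay above every other array in both conditions, and C57BL/6J overlapped DBA/2J.
The excess of AKR/J over C57BL/6J was 1.60 ± 0.20 among controls (3.04-fold, limma adjusted p = 1.336e-04) and 1.77 ± 0.20 after sleep deprivation (3.40-fold, adjusted p = 4.460e-05). DBA/2J was lower than AKR/J by -1.77 ± 0.20 (adjusted p = 4.154e-05) and -1.90 ± 0.20 (adjusted p = 1.925e-05). DBA/2J minus C57BL/6J was -0.17 and -0.14 (adjusted p = 0.9999 and 0.9500). Pituitary markers also varied between brains: their summed log2 level over 6 genes was 28.4 to 29.4 in control AKR/J brains, 38.5 to 44.9 in sleep-deprived AKR/J brains and 41.3 to 48.2 in control C57BL/6J brains. Their part in the difference of Abhd1 was not tested.

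These calls of Abhd1 were the only ones among the 14 probe sets in brain. In controls, 1 of 14 passed for AKR/J against C57BL/6J (2.00% of all probe sets) and 1 for DBA/2J against AKR/J (1.59%), and in sleep-deprived brains 1 of 14 (1.81%) and 1 of 14 (1.56%). DBA/2J against C57BL/6J gave 0 of 14 by limma in controls (1.90% of all) and 0 of 14 after sleep deprivation (2.03%), with 1 and 0 at an unadjusted p under 0.05. The 1 was Pik3ap1 1429831_at, which read 4.38, 4.35 and 4.21 in control DBA/2J brains and 3.81, 3.92 and 3.81 in C57BL/6J, without overlap. The difference was 0.47 ± 0.15 (adjusted p = 0.1766), and it passed under 3 of 26 alternatives.

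Cyp46a1, which set AKR/J apart in liver, was at one level in brain. It lay between 9.14 and 9.38 in C57BL/6J, between 9.17 and 9.34 in AKR/J and between 9.01 and 9.30 in DBA/2J over both conditions. The strains overlapped throughout. AKR/J minus C57BL/6J was -0.02 among controls (95% interval -0.19 to 0.16) and 0.08 after sleep deprivation (-0.09 to 0.26), intervals that do not reach the 3.27 seen in liver.
The other 7 genes lay at or below 5.49 on every brain array. By their medians over the 18 arrays, 6 lay below the median brain array level of 4.77 by every probe set. So did 2 of the 3 probe sets of Rassf4, while Rassf4 1439622_at lay between 4.75 and 5.39. Pik3ap1 1421285_at had a median of 4.60, though some of its arrays lay above 4.77. Obp2a lay between 3.61 and 4.19 on the 18 arrays, Nlrp12 between 3.48 and 3.95 and Nnmt between 3.82 and 4.34. The Vnn1 probe sets lay between 3.14 and 4.11, those of Mme between 3.38 and 4.49, those of Rassf4 between 3.13 and 5.39 and those of Pik3ap1 between 3.69 and 5.49. At levels below the median a strain difference could lie below what the array resolves.

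**Figure D3:**
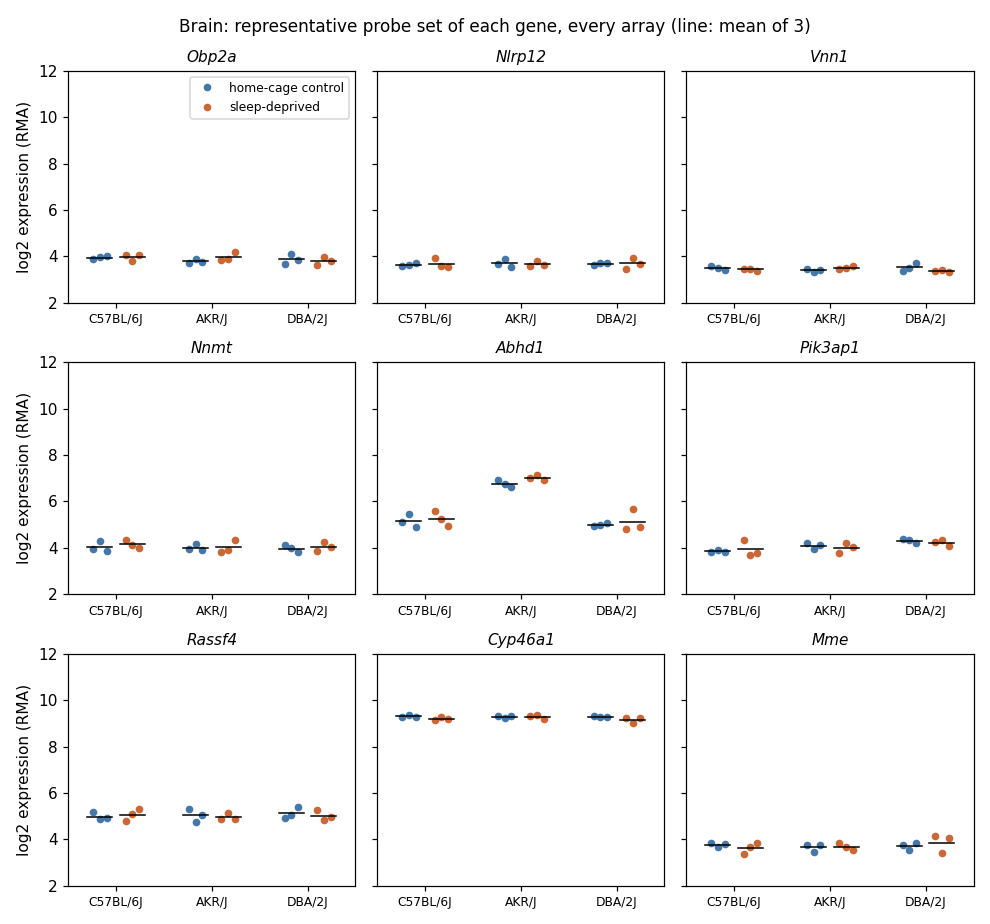
Log2 expression on each of the 18 brain arrays for the same 9 probe sets, by strain and condition, with bars at group means. Abhd1 is higher on the 6 AKR/J arrays (6.60 to 7.13) than on the other 12, Cyp46a1 lies between 9.01 and 9.38 on all, and the other 7 lie at or below 5.39.

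The difference between tissues was tested itself. Among sleep-deprived arrays, an F test over the strain differences in liver against those in brain called 13 of 14 member probe sets, covering all 9 genes, where 4.66% of all probe sets were called. The exception was Pik3ap1 1421285_at (limma adjusted p = 0.4513). The genes were chosen for wide differences in control liver, so such calls follow in part from the choice. For the genes that lay below the brain median, a strain difference in brain could also have gone unseen. For Abhd1 both tissues had the same direction, and the difference was 4.18 in liver and 1.77 in brain (adjusted p of the F test = 2.212e-09). For Cyp46a1 the liver difference of 3.27 stood against 0.08 in brain (adjusted p = 9.208e-12).

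**Figure D4:**
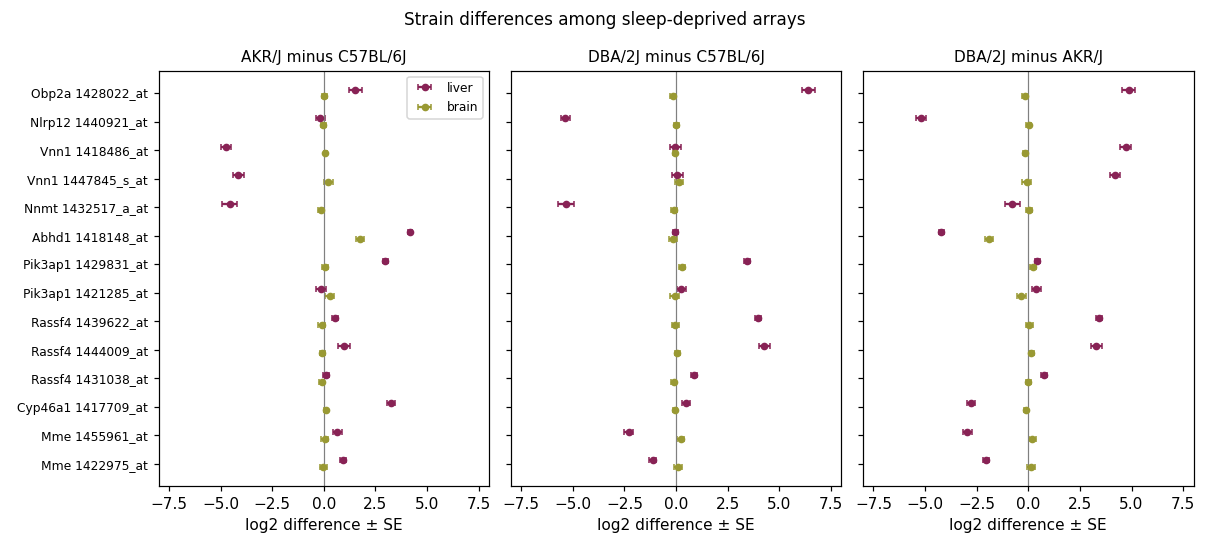
Log2 differences between strains among sleep-deprived arrays, with bars of 1 SE, for the 14 probe sets in liver and in brain, 1 panel per pair of strains. Liver differences reach 6.39 (Obp2a, DBA/2J minus C57BL/6J) and -5.37 (Nlrp12, same pair), while in brain only Abhd1 leaves the zone around 0 in the pairs with AKR/J.

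In liver, a response to sleep deprivation passed for 1 of the 9 genes. Averaged over strains, Nlrp12 rose by 0.61 ± 0.13 (1.53-fold, limma adjusted p = 0.0092), 1 of 14 member probe sets where 3.60% of all were called. This test uses the control arrays that chose the members, though as a mean over strains and not a difference between them. The change by strain, given without a test, was 0.56 for C57BL/6J, 0.91 for AKR/J and 0.37 for DBA/2J. Sleep-deprived and control arrays did not overlap in C57BL/6J and AKR/J and overlapped in DBA/2J, where the gene is dim. Over the alternatives the mean change lay between 0.52 and 0.71, with adjusted p from 5.356e-04 to 0.0246. The mean changes of the other 13 probe sets did not pass and lay between -0.32 ± 0.21 (Nnmt, adjusted p = 0.5149) and 0.20 ± 0.18 (Obp2a, adjusted p = 0.6621). For these 2 genes the strains had different signs, again as values without a test: Obp2a had differences of 0.35 for C57BL/6J, 0.85 for AKR/J and -0.60 for DBA/2J, and Nnmt of 0.30, -0.22 and -1.05. The value of Nnmt in AKR/J turned to 0.15 under an alternative. Changes by strain subtract the control values that chose the genes, so their signs can follow in part from the choice. In all 9 genes the strain that stood apart among controls stood apart after sleep deprivation, by the representative probe set.

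In brain, no response of a member to sleep deprivation passed. By limma 0 of 14 passed for the mean over strains (1.73% of all probe sets were called) and 0 of 14 in each strain (0.0377% of all in C57BL/6J, 0.300% in AKR/J, 0.104% in DBA/2J). Beside shares this small, 0 of 14 does not set the members apart, and most of them lay low in brain. At an unadjusted p under 0.05 there was 1 for the mean, the dim Rassf4 1431038_at at 0.15 ± 0.07, and 0 in each strain. The mean change was 0.18 ± 0.12 for Abhd1 and -0.08 ± 0.05 for Cyp46a1 (95% interval -0.18 to 0.02). The strain by sleep deprivation interaction called 0 of 14, with 0 at an unadjusted p under 0.05, and 0.00% of all probe sets.

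The liver patterns of the members fell into a few shapes. Of the 18 liver arrays, 9 are the controls that chose the members, and arrays share strain and condition, so a strong correlation of either sign follows in part from the choice and is given as a description. Over these arrays Pearson's r was 0.97 between Obp2a and Rassf4, 0.94 between Nlrp12 and Mme and 0.96 between Abhd1 and Cyp46a1. Opposite patterns gave -0.98 for Nlrp12 and Rassf4, -0.98 for Vnn1 and Abhd1 and -0.95 for Nnmt and Pik3ap1. None of these pairs shares a chromosome: Obp2a lies on chromosome 2, Rassf4 on 6, Nlrp12 on 7, Mme on 3, Abhd1 on 5, Cyp46a1 on 12, Vnn1 on 10, Nnmt on 9 and Pik3ap1 on 19.
Among all genes, the one nearest in pattern over these 18 arrays was Cap1 for Obp2a (r = 0.98), Psen2 for Nlrp12 (0.98), H2-D1 for Vnn1 (0.99), Zfp874a for Nnmt (0.97) and Pomt1 for Abhd1 (0.99). It was Prxl2b for Pik3ap1 (0.99), Tpmt for Rassf4 (0.99), Tnfsf10 for Cyp46a1 (0.97) and Stra6l for Mme (0.97). H2-D1 is a class I histocompatibility gene whose alleles differ between these strains, and its means in sleep-deprived liver were 12.01 for C57BL/6J, 7.44 for AKR/J and 11.92 for DBA/2J, by a probe set that may also read related class I genes. Pfn1 was among the 3 nearest of both Obp2a and Rassf4, and Cplane1 among those of both Abhd1 and Cyp46a1.

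The measured genes on each side of every member were read in the same sleep-deprived livers, 18 neighbours in all. By limma 4 passed in AKR/J against C57BL/6J, 2 in DBA/2J against C57BL/6J and 3 in DBA/2J against AKR/J, beside 6.45%, 6.12% and 5.16% of all probe sets. Vnn3, given above, lies beside Vnn1 and was lower in AKR/J as well. Bmyc, a Myc relative beside Obp2a, was higher in DBA/2J, as Obp2a was, by 1.67 ± 0.15 against C57BL/6J (adjusted p = 2.532e-07) and 1.24 ± 0.15 against AKR/J (adjusted p = 1.472e-05). Myadm, a myeloid membrane protein gene beside Nlrp12, was lower than in C57BL/6J by -1.05 ± 0.13 in DBA/2J (adjusted p = 2.385e-05) and by -0.60 ± 0.13 in AKR/J (adjusted p = 0.0067), while Nlrp12 was low in DBA/2J alone.
Beside Nnmt, Zbtb16, a zinc finger transcription factor, was lower in AKR/J than in C57BL/6J by -0.74 ± 0.20 (adjusted p = 0.0300), a call lost under 6 of 27 alternatives, and Gm5617 was higher by 0.65 ± 0.11. The neighbours of Abhd1, Pik3ap1, Rassf4, Cyp46a1 and Mme did not pass in any pair. Of these, Preb overlaps Abhd1 and Depp1 overlaps Rassf4 in the gene table, and their differences lay between -0.44 and 0.61.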

How the data were processed

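Per the submitters' processing notes, the authors made the log2 expression values with RMA (version: not given in the sources used here). This method subtracts background, gives arrays a common distribution and summarises probes, and it compresses differences of dim probe sets. The median of array medians was 4.10 in liver and 4.77 in brain, so no difference in level between brain and liver was tested, and markers of both tissues are given only as a check of the tissue labels. No further normalisation was applied to the deposited values. Arrays have no sequencing depth, and their number limits the precision.

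The array's 64 controls among 45101 probe sets were not tested. Gene symbols are those of the platform annotation, brought up to date by identifier with RefSeq's table for GRCm38.p6 (34741 of the 34945 probe sets with 1 symbol matched, while 932 had several symbols and 9160 had none). Limma 3.58.1 (R 4.3.3) was fitted per tissue to 18 arrays with 6 group means, and for the tissue test to 36 arrays with 12 group means. Two-sided p-values were adjusted by Benjamini-Hochberg over 45037 probe sets at a threshold of 0.05. On simulated data with 200 changed probe sets, the fit recovered 97% of changes of log2 1 and 100% of log2 2 for the sleep-deprived liver strain comparison, and 86% and 99% for that in control brains. False calls numbered 11 and 8. For the brain interaction it recovered 74% and 99%. The simulated arrays had independent normal noise and no other group differences, unlike the real arrays.

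The members and gene lists were chosen with earlier results of these data known. Each list holds its member gene, which its counts include. Those counts stand beside 6.45% (AKR/J against C57BL/6J), 6.12% (DBA/2J against C57BL/6J) and 5.16% (DBA/2J against AKR/J) of all probe sets. Named were all member probe sets, up to 3 genes of each list with the largest called strain difference in sleep-deprived liver (not all are given), the nearest measured gene on each side, and the 3 genes nearest in pattern by Pearson's r, of which the first is given. The probe set of highest mean liver level stands for a gene. Alternatives were other scaling, a filter on dim probe sets, other variance moderation, only the arrays compared, a replicate block, a stricter threshold and arrays left out. Probe sequences were not used here. Figures used Python 3.11.15 and matplotlib 3.10.9.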

Additional observations from a re-analysis of the deposited data

Results flagged for a closer look

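The strain differences of 13 member probe sets differed between liver and brain by limma's F test on sleep-deprived arrays. The adjusted p was 5.489e-16 for Nlrp12, 4.342e-14 for Obp2a and 9.208e-12 for Cyp46a1. It was 2.854e-14 and 2.859e-11 for the probe sets 1418486_at and 1447845_s_at of Vnn1, and 6.387e-13 for Pik3ap1 1429831_at. For Rassf4 it was 4.386e-14 (1439622_at), 7.005e-11 (1444009_at) and 0.0064 (1431038_at). For Nnmt it was 2.127e-10, for Abhd1 2.212e-09, and for Mme 6.378e-09 (1455961_at) and 1.492e-06 (1422975_at). For Abhd1 the difference between AKR/J and C57BL/6J had the same sign in both tissues. The choice of the genes by control liver made calls of this test likely, and most of them lay low in brain.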

How the results depend on the processing

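Of 366 counts of member probe sets called under an alternative, over 13 comparisons, 362 stayed within 1.5 times the reported count. Among differences that passed, in the reported fit or under an alternative, 0 changed sign, while some that never passed did, such as Rassf4 1431038_at in AKR/J against C57BL/6J (0.11, down to -0.04). For control brains, DBA/2J against C57BL/6J went from 0 to 1 called (Pik3ap1 1429831_at) with only the arrays of the contrast (1) and without the arrays that stood apart (1), and ranged from 0 to 1 with single arrays left out, the 1 coming without sleep-deprived C57BL/6J brain array 1. DBA/2J against AKR/J in control brains went from 1 to 2 without the arrays that stood apart. The cause was not tested. Of the 30 calls of members in sleep-deprived liver, 28 held under every alternative run, and the exceptions were AKR/J against C57BL/6J for Rassf4 1439622_at and 1444009_at (adjusted p up to 0.1279 and 0.2056). The tissue test of Rassf4 1431038_at had an adjusted p of 0.0525 with only the arrays of the contrast. The filter on dim probe sets left 3 member probe sets in brain and 11 in the fit of both tissues. Within a tissue the replicate numbers showed no clear pairing of the samples: same-numbered arrays correlated at -0.16 to 0.22 in liver and -0.56 to 0.61 in brain. Of 18 arrays, 7 in liver and 9 in brain correlated best with their own number. With the replicate block the member count for AKR/J against C57BL/6J in sleep-deprived liver was 10, as without it. Whether same-numbered brain and liver arrays came from the same mice was not tested, and the tissue test took all arrays as independent. Over all probe sets, the counts in sleep-deprived liver fell from 2904, 2756 and 2322 to 1539, 1520 and 1186 at an adjusted p under 0.01. In control brains, AKR/J against C57BL/6J gave 901, 259 when AKR/J control arrays 2 and 3 were dropped and 1892 without the arrays that stood apart. With the probe set of largest SD standing for each gene, 4 of 27 list counts moved beyond 1.5 times. In AKR/J against C57BL/6J, the lower lipocalins and odorant carriers went from 1 to 0. The PI3 kinase list went from 0 to 1 lower in that pair, and from 0 to 1 higher in DBA/2J against AKR/J. The membrane peptidases went from 1 to 3 lower in DBA/2J against AKR/J. Levels near the floor limit what brain shows for 6 of the genes.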
